A study of Mus musculus with 8 samples.

Results

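The genes described here are 10 mouse genes whose mRNAs are known 5′ terminal oligopyrimidine (TOP) mRNAs and do not encode ribosomal proteins: Eef1a1, Eef1b2, Eef1d, Eef1g, Eef2, Tpt1, Pabpc1, Hnrnpa1, Npm1 and Nap1l1. They were chosen by name, and all 10 had values in both deposited tables, out of 13838 genes in either table and 12416 genes in both. The tables hold ribosome-protected fragments (footprints, the mRNA pieces that a ribosome shields from nuclease) and total RNA of J1 embryonic stem cells, a line of strain 129S4/SvJae grown without feeders in serum with leukemia inhibitory factor. Cells carried eIF4A2 shRNA (knockdown; sheIF4A2-2 and sheIF4A2-3 are named) or control shRNA (shNT and shGFP are named). All were selected in puromycin at 1 μg/mL for 3 days, were taken on day 4.5 and met cycloheximide at 0.1 mg/mL for 1 min before lysis. The 8 libraries form 4 groups of 2, which the protocol calls biological replicates. The labels do not tie a library to any of these shRNAs.

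TOP mRNAs begin at the cap with a cytosine followed by a run of pyrimidines, and nearly all ribosomal proteins and many translation factors are made from mRNAs of this class. Their translation is known to fall together when the growth-regulating kinase mTORC1 is inhibited, and the RNA-binding protein LARP1 binds the cap and the tract. eIF4A2 is a DEAD-box RNA helicase closely related to eIF4A1, the helicase of the cap-binding complex that unwinds mRNA 5′ ends. The comparison asks whether these growth-linked mRNAs changed in amount, in ribosome footprints, or in the ratio of footprints to RNA after eIF4A2 knockdown.

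The pyrimidine tract defines the class, so the 5′ ends of the members are shown where a sequence was at hand. The RefSeq promoter table (build GRCm38.p6) matched 6 of the 10 members. Not matched were Eef1d, Eef1g, Pabpc1 and Npm1. The windows run from 5 bases before to 24 bases after the annotated transcript start (offset 0), on the transcript strand. Capitals mark the longest run that opens with a C and goes on with at least 4 pyrimidines (C or T). On chr9:78481700-78481729 (minus strand),
Eef1a1: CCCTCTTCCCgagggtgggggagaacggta
On chr1:63176826-63176855 (plus strand),
Eef1b2: gttccgccggaagtagccgaggccttgcgt
On chr10:81176626-81176655 (plus strand),
Eef2: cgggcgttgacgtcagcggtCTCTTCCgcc
On chr14:75845251-75845280 (plus strand),
Tpt1: acgacagttccgggggagccgcggacggtg
On chr15:103240392-103240421 (plus strand),
Hnrnpa1: gaggaggcgggataaaagggcgagcagaag
On chr10:111473222-111473251 (plus strand),
Nap1l1: cgggtCTTTTTTagcgccatctgctcgcgg
A tract that begins within 10 bases of the annotated start was found in 2 of the 6, Eef1a1 (10 bases, from offset -5) and Nap1l1 (7 bases, from offset 0). In Eef2 a tract of 7 bases began at offset 15. For comparison, 34.4% of the 27018 genes in the promoter table and 61.2% of 67 ribosomal protein genes held such a tract within 10 bases of a start. These windows depend on where RefSeq places the start, which need not be the start used in these cells, and a window without the tract says nothing of the mRNA's class.

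The targeted gene served as a check of the labels. Eif4a2 footprints were 311 and 153 CPM in the knockdown, against 395 and 409 CPM in the control, and its total RNA was 583 and 617 CPM in the knockdown, against 739 and 969 CPM in the control. CPM here means reads scaled to the authors' effective library size. Both assays put every knockdown library below every control library, an order that 12.4% of 12358 genes showed in both assays. The log2 fold changes were -0.88 ± 0.29 SE in footprints and -0.50 ± 0.18 in total RNA. However, limma's threshold was passed in neither (adjusted p = 0.273 and 0.29). Depth was 7947827 to 10682677 reads in footprint libraries and 8564582 to 12840349 in total RNA libraries, and between 2182 and 97728 reads stood behind each member value. The highest footprint depth, that of control replicate 2, was treated as an estimate, with 1 read taken as 0.0991 CPM. The total RNA control libraries stood apart from each other. Over genes of at least 10 CPM their log2 values differed with an SD of 0.45, against 0.135 between the knockdown libraries. For footprints the SD was 0.423 in the knockdown pair and 0.372 in the control pair. All 11 embryonic stem cell markers had values, with sums of 5527 to 5557 CPM in knockdown and 7305 to 7669 CPM in control footprints, and 5684 to 5726 CPM in knockdown and 6947 to 7613 CPM in control total RNA. Of 8 fibroblast markers 4 had values (not Col3a1, Postn, Dcn or Lum), and their footprint sums were 19.5 to 21.1 CPM in the knockdown, against 17.1 to 25.5 CPM in the control. Endoderm markers (3 of 4 with values, not Afp) summed to at most 11.8 CPM and mesoderm markers (1 of 3, not T or Mixl1) to at most 1.80 CPM in any footprint library. For 3 neural markers (2 with values, not Sox1) the sums were 45.5 to 50.6 CPM in knockdown footprints, against 19.6 to 20.7 CPM in control footprints, and 40.5 to 42.0 CPM in knockdown total RNA, against 16.3 to 18.1 CPM in control total RNA. The part of these marker shifts in the results below was not tested, and in bulk cultures fewer cells of a type and less RNA per cell cannot be told apart.

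**Figure D1:**
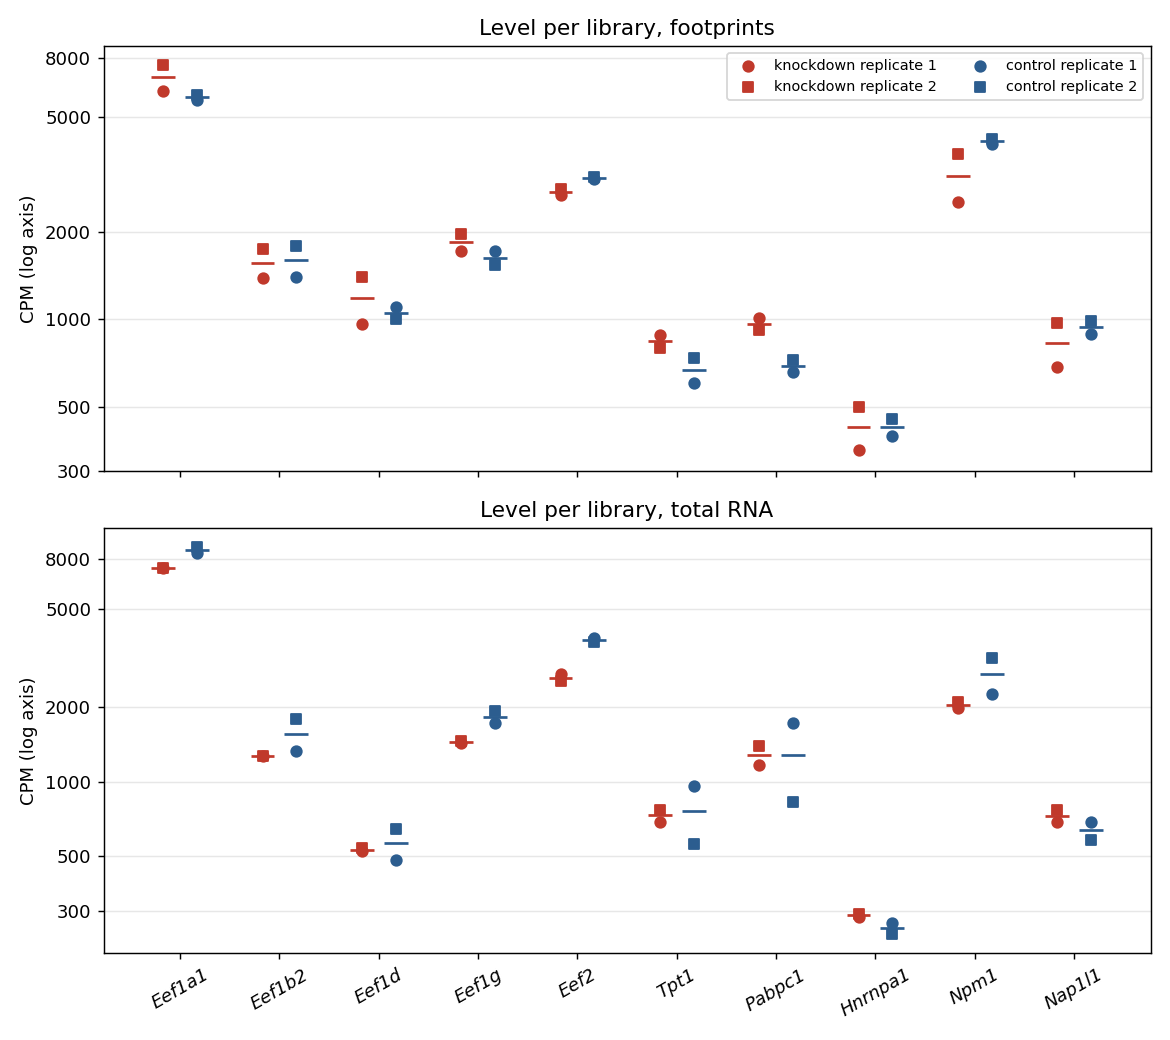
Level of each member in CPM (log axis) in footprints (top) and total RNA (bottom), with knockdown libraries in red left of control libraries in blue, circles for replicate 1, squares for replicate 2 and bars for the mean of 2. Eef2 total RNA shows a gap between the groups (2717 and 2555 CPM in the knockdown against 3813 and 3677 CPM in the control), while Pabpc1 total RNA in the control libraries lies at 1722 and 831 CPM, on either side of both knockdown libraries.

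In footprints the members did not move together. Pabpc1 and Tpt1 were higher in both knockdown libraries, Npm1 and Eef2 were lower in both, and no member passed the threshold. limma called 0 of the 10 members and 0% of 12723 genes tested at an adjusted p below 0.05. At an unadjusted p below 0.05 there was 1 member, Pabpc1, against 12.9% of all genes. Counting tools (edgeR's quasi-likelihood test and DESeq2) were run on 3 of the 4 footprint columns, which left 1 control library. They are listed only among the alternative runs. The members' log2 fold changes had a median of 0.06, with 5 above and 5 below 0, beside a median of 0.01 over all genes tested, 50.6% of which were above and 49.4% below 0.

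Pabpc1 encodes the cytoplasmic poly(A)-binding protein, which bridges the mRNA tail to the cap-binding complex. Its footprints were 1011 and 916 CPM in the knockdown, against 657 and 726 CPM in the control. The groups were apart, and the log2 fold change was 0.48 ± 0.18 SE (95% interval 0.07 to 0.89, limma adjusted p = 0.316). Tpt1 encodes TCTP, a small protein linked to growth control, and had 886 and 795 CPM in the knockdown against 603 and 737 CPM in the control. Here too every knockdown library lay above every control library, with a log2 fold change of 0.33 ± 0.19 and an adjusted p of 0.497.

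Eef1a1 encodes eEF1A, the GTPase that brings aminoacyl-tRNA to the ribosome. It had 6152 and 7537 footprint CPM in the knockdown against 5715 and 5958 CPM in the control, and its log2 fold change was 0.22 ± 0.28 (adjusted p = 0.776). Its exchange factor eEF1B is built from the products of Eef1b2 and Eef1d, which load eEF1A with GTP, and of Eef1g, a scaffold subunit. Eef1g followed Eef1a1, with 1725 and 1964 CPM in the knockdown just above 1721 and 1542 CPM in the control (0.18 ± 0.21). For Eef1b2, 1393 and 1751 CPM in the knockdown overlapped with 1404 and 1798 CPM in the control. Eef1d had 968 and 1397 CPM in the knockdown on either side of 1105 and 1002 CPM in the control. Neither subunit thus showed a direction in footprints, with log2 fold changes of -0.02 ± 0.23 and 0.14 ± 0.22. For Eef1b2 the value turned positive (0.10) with column totals as scaling.

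Eef2 encodes eEF2, the GTPase that moves the ribosome along the mRNA. Its footprints were 2687 and 2823 CPM in the knockdown, against 3061 and 3104 CPM in the control. This was a small gap with a log2 fold change of -0.16 ± 0.22 (limma adjusted p = 0.798). With column totals as scaling the Eef2 value was -0.04 and the groups overlapped. Npm1 encodes nucleophosmin, a nucleolar chaperone of ribosome assembly, and had 2539 and 3719 CPM in the knockdown against 4039 and 4189 CPM in the control. Both knockdown libraries were below the control, by very different amounts, and the log2 fold change was -0.42 ± 0.27 (adjusted p = 0.549). The histone chaperone gene Nap1l1 (687 and 974 CPM in the knockdown against 893 and 991 CPM in the control) and the splicing factor gene Hnrnpa1 (353 and 497 CPM in the knockdown against 395 and 455 CPM in the control) overlapped between the groups. Their log2 fold changes were -0.20 ± 0.22 and -0.02 ± 0.20, and that of Hnrnpa1 was 0.11 with column totals as scaling.

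The footprint groups were apart for 6 members, 4 higher and 2 lower in the knockdown. Among all genes tested 22.3% lay higher in both knockdown libraries and 22.5% lower, 44.8% in all. The knockdown libraries themselves differed. Of the 10 members 8 had more footprints in knockdown replicate 2 than in replicate 1, and the median difference (replicate 2 minus replicate 1) was 0.31 on the log2 scale, beside 0.05 over genes of at least 10 CPM. Tpt1 and Pabpc1 went the other way, with -0.16 and -0.14. Without knockdown replicate 1 the members' median log2 fold change was 0.24 (8 of 10 positive), and without knockdown replicate 2 it was -0.16 (4 of 10 positive).

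In total RNA most members were lower in the knockdown, with Eef2 furthest below the control relative to its spread. limma called 0 of the 10 members and 0% of 13436 genes tested. At an unadjusted p below 0.05 there was 1 member, Eef2, against 14.9% of all genes, and edgeR's quasi-likelihood test and DESeq2 on read counts also called 0 members (0 and 272 genes in all). The members' median was -0.15, with 3 above and 7 below 0. Beside it stood a median of -0.002 over all genes tested (49.7% above and 50.3% below 0) and -0.22 over 85 ribosomal protein genes, the main class of TOP mRNAs (3 above 0). With column totals as scaling the members' median was -0.08, with 5 of 10 above 0, while the median of all genes was 0.06, and 3 of 10 members stayed above that median.

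Eef2 had 2717 and 2555 CPM of total RNA in the knockdown, against 3813 and 3677 CPM in the control. The groups were well apart and the libraries close within each group, with knockdown RNA at 70.4% of control and a log2 fold change of -0.51 ± 0.17 (95% interval -0.93 to -0.09, limma adjusted p = 0.27). It was -0.53 against control replicate 1 alone and -0.48 against control replicate 2 alone. Eef1g had 1434 and 1459 CPM in the knockdown, against 1728 and 1930.1 CPM in the control (-0.34 ± 0.16, adjusted p = 0.394). Eef1a1 had 7368 and 7344 CPM in the knockdown, against 8402 and 8895 CPM in the control (-0.23 ± 0.20, adjusted p = 0.635). For these 3 elongation factor genes both control libraries were above both knockdown libraries by a margin larger than the gap within either group. Among all 13436 genes tested, 24.6% lay lower in both knockdown libraries. The share with so wide a margin was not computed, so the margin is not read as particular to these genes.

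Npm1 and Eef1b2 were also lower in both knockdown libraries, by little against control replicate 1 and by more against control replicate 2. Npm1 had 1980.5 and 2109.7 CPM in the knockdown, against 2268 and 3183 CPM in the control (-0.39 ± 0.22, adjusted p = 0.453). Eef1b2 had 1269 and 1268 CPM in the knockdown, against 1329.6 and 1801 CPM in the control (-0.29 ± 0.20, adjusted p = 0.541). Against control replicate 1 alone the values were -0.15 for Npm1 and -0.07 for Eef1b2, and against control replicate 2 alone -0.64 and -0.51. Eef1d had 523 and 537 CPM in the knockdown, between 484 and 642 CPM in the control (-0.07 ± 0.18), and its value was at 0 with column totals as scaling (0.001).

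For Pabpc1 and Tpt1 total RNA gave no direction, and the control libraries lay on either side of the knockdown. Pabpc1 had 1165 and 1391 CPM in the knockdown, against 1722 and 831 CPM in the control, a 2.07-fold gap between control libraries. Tpt1 had 689 and 769 CPM in the knockdown, against 959.8 and 561 CPM in the control, a 1.71-fold gap. Their log2 fold changes were 0.09 ± 0.35 and -0.01 ± 0.27, the widest intervals of the 10 (-0.76 to 0.94 and -0.66 to 0.64), and that of Tpt1 was 0.06 with column totals as scaling. Hnrnpa1, with 283 and 291 CPM in the knockdown against 269 and 242 CPM in the control, was the 1 member higher in both knockdown libraries (0.17 ± 0.13). Nap1l1 had 687 and 767 CPM in the knockdown, overlapping with 689 and 581 CPM in the control (0.20 ± 0.16, adjusted p = 0.608).

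**Figure D2:**
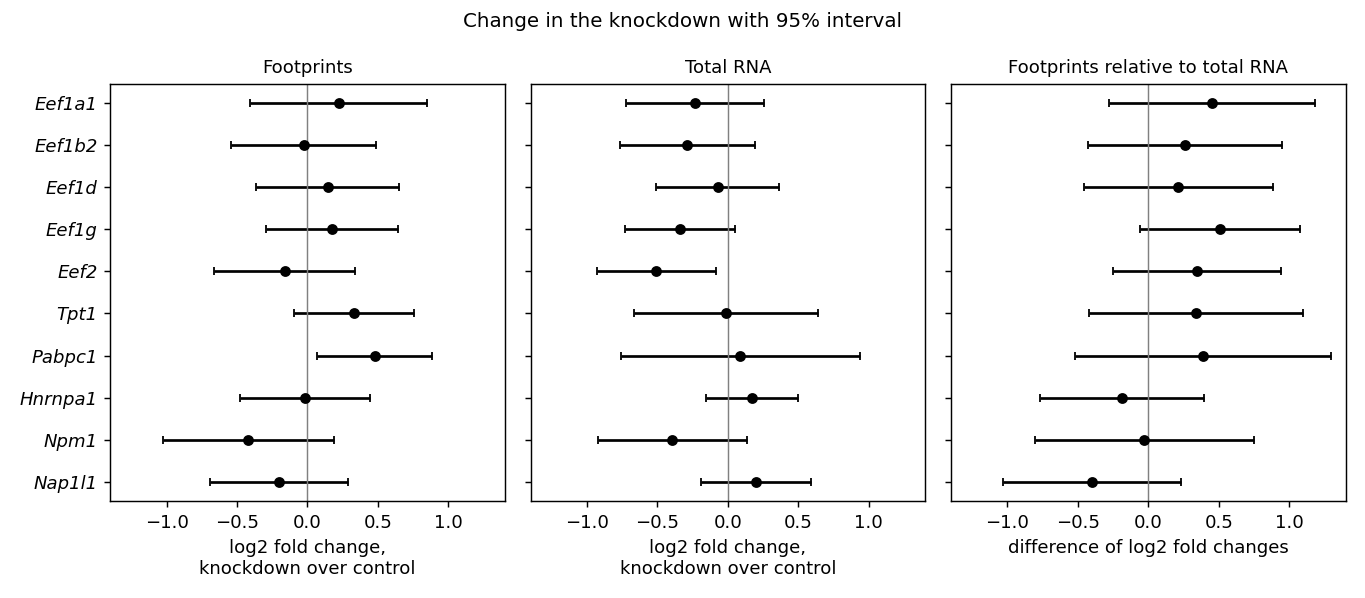
Log2 fold change of each member (points) with its 95% interval from limma (bars) in footprints, in total RNA and as the difference between them, knockdown over control. Pabpc1 in footprints (0.48) and Eef2 in total RNA (-0.51) are the only intervals of the 30 drawn that do not include 0, and neither passed adjustment over all genes.

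The groups of total RNA were apart for 6 members, 5 lower and 1 higher in the knockdown, where all genes tested gave 24.6% lower, 23.3% higher and 47.9% in all. The calls turned on which control library was kept. Without control replicate 1, limma called all 10 members (6 lower, 4 higher) and 46.1% of all genes (23.0% lower, 23.1% higher). Without control replicate 2 it called 4 members, all lower (Eef1g, Eef2, Tpt1 and Pabpc1), and 25.4% of all genes (13.3% lower, 12.0% higher). In both fits the single control library is assumed to vary like the knockdown libraries, which were far closer to each other than the controls were. Pabpc1 and Tpt1 were called in opposite directions in these fits. The Pabpc1 log2 fold change was 0.62 (adjusted p = 7.8e-05) against control replicate 2 and -0.44 (adjusted p = 0.00506) against control replicate 1. For Tpt1 the values were 0.38 (adjusted p = 0.00122) and -0.40 (adjusted p = 0.00288). The median of the 10 members was -0.27 without control replicate 1 and -0.17 without control replicate 2, beside -0.41 and -0.05 for ribosomal protein genes, so the order of these lists turned with the control library.

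**Figure D3:**
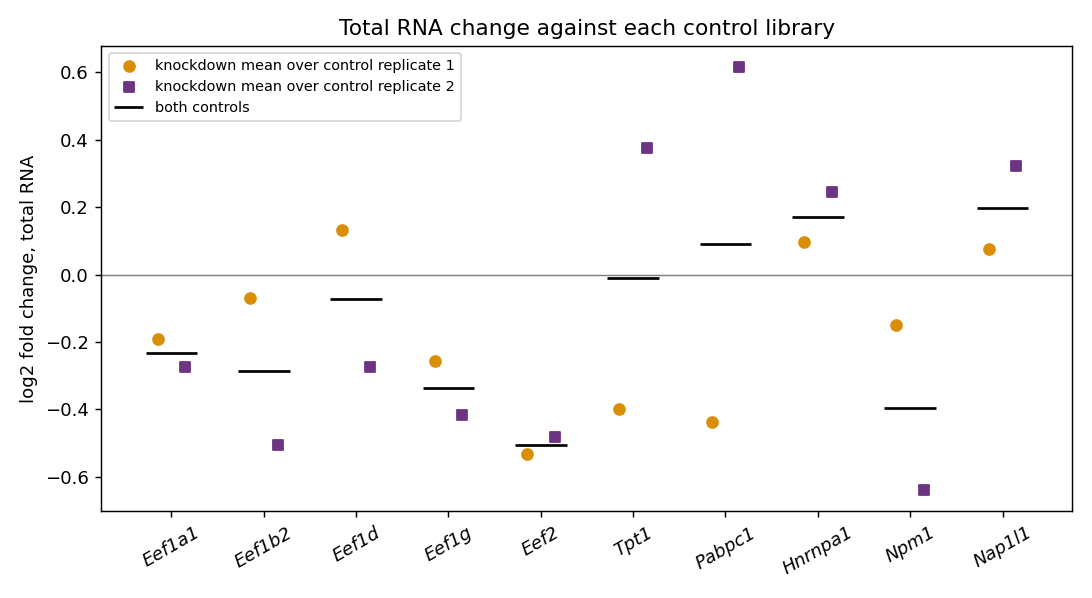
Log2 fold change of total RNA for each member, with the mean of the 2 knockdown libraries set against control replicate 1 alone (circles), control replicate 2 alone (squares) or both (bars). Eef2 (-0.53 and -0.48) and Eef1g (-0.26 and -0.42) keep their sign, while Pabpc1 (-0.44 and 0.62), Tpt1 (-0.40 and 0.38) and Eef1d (0.13 and -0.27) lie on either side of 0.

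Relative to total RNA, footprints of all 5 elongation factor genes, of Tpt1 and of Pabpc1 had positive values in the knockdown, and those of Nap1l1, Hnrnpa1 and Npm1 had negative ones. The change in translational efficiency, the footprint log2 fold change minus the total RNA log2 fold change in 1 limma model over 8 libraries, was called for 0 of the 10 members and 0% of 12358 genes (smallest adjusted p 1.00). At an unadjusted p below 0.05 there were 0 members and 1.55% of all genes, and no count tool was run on this contrast. No label ties a footprint library to a total RNA library made from a shared culture. The deviations of same-numbered libraries correlated across genes with r = 0.11 in the knockdown and 0.21 in the control, and the model treats all 8 libraries as independent. The members' median was 0.30 (7 positive, 3 negative), beside -0.005 over all genes tested (49.2% positive, 50.8% negative) and 0.17 over 83 ribosomal protein genes (60 positive). It was 0.02 over 17 other known TOP mRNAs (12 positive), -0.10 over 16 other elongation and termination factors (7 positive), -0.09 over 17 regulators (4 positive) and -0.06 over 11 paralogs of the members (4 positive). With column totals as scaling the median of all genes was 0.04 and Npm1 turned positive (0.03, against -0.03), but 7 of 10 members lay above the median of all genes under either scaling. Eef1g had the largest value, 0.51 ± 0.26 (95% interval -0.06 to 1.08), then Eef1a1 with 0.46 ± 0.33, Pabpc1 with 0.39 ± 0.41, Eef2 with 0.34 ± 0.27, Tpt1 with 0.34 ± 0.34, Eef1b2 with 0.26 ± 0.31 and Eef1d with 0.21 ± 0.30. Nap1l1 had -0.40 ± 0.28 and Hnrnpa1 -0.19 ± 0.26. Every interval included 0, and intervals of this width allow changes in either direction.

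The elongation factors reached these values in different ways. Eef1a1 and Eef1g had every knockdown library above every control library in footprints and below every control library in total RNA, a pattern of 1.04% of the 12358 genes. For Eef1g the nearest footprint libraries were almost level, 1725 CPM in knockdown replicate 1 against 1721 CPM in control replicate 1. Eef2 and Npm1 were below the control in both assays, a pattern of 12.4% of the genes. For Eef2 the footprint groups overlapped with column totals as scaling. The positive values of Pabpc1 and Tpt1 depended on the total RNA controls: without total RNA control replicate 1 they were -0.14 and -0.05, and without control replicate 2 they were 0.91 and 0.73. The order of the lists turned with the control as well: without total RNA control replicate 1 the median was 0.27 for the members and 0.36 for ribosomal protein genes, and without control replicate 2 it was 0.21 and 0.01.

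Ranked among all 12358 genes by the ratio of mean footprints to mean total RNA, the members differed widely from each other. The 2 tables were normalized separately, so only ranks within a group are read. Eef1d stood at percentile 98.7 in the knockdown and 96.7 in the control, Npm1 at 93.4 and 92.0, and Hnrnpa1 at 92.3 and 94.5. These 3 ranked high in both groups, though the ranks were not corrected for gene or coding length. At the other end, Pabpc1 stood at percentile 42.5 in the knockdown and 20.5 in the control, and Eef1a1 at 61.7 in the knockdown and 34.6 in the control. Eef1g stood at 85.7 and 58.1, Eef2 at 71.4 and 51.2, Tpt1 at 78.8 and 57.0, Eef1b2 at 84.0 and 69.4, and Nap1l1 at 78.3 and 91.5, each in the knockdown and in the control. Over every pairing of a footprint library with a total RNA library of its group, the percentiles ran from 52.4 to 67.8 in the knockdown and 31.4 to 41.0 in the control for Eef1a1, from 82.6 to 85.8 and 47.6 to 65.7 for Eef1g, and from 68.3 to 73.8 and 49.9 to 52.7 for Eef2. In these 3 the knockdown range lay above the control range, as in 5.94% of the 12358 genes, and 11.3% had ranges apart in either direction. For Pabpc1 the ranges overlapped (34.8 to 56.4 in the knockdown against 9.27 to 55.8 in the control), as they did for the other 6 members. The pairings share libraries and are no test.

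**Figure D4:**
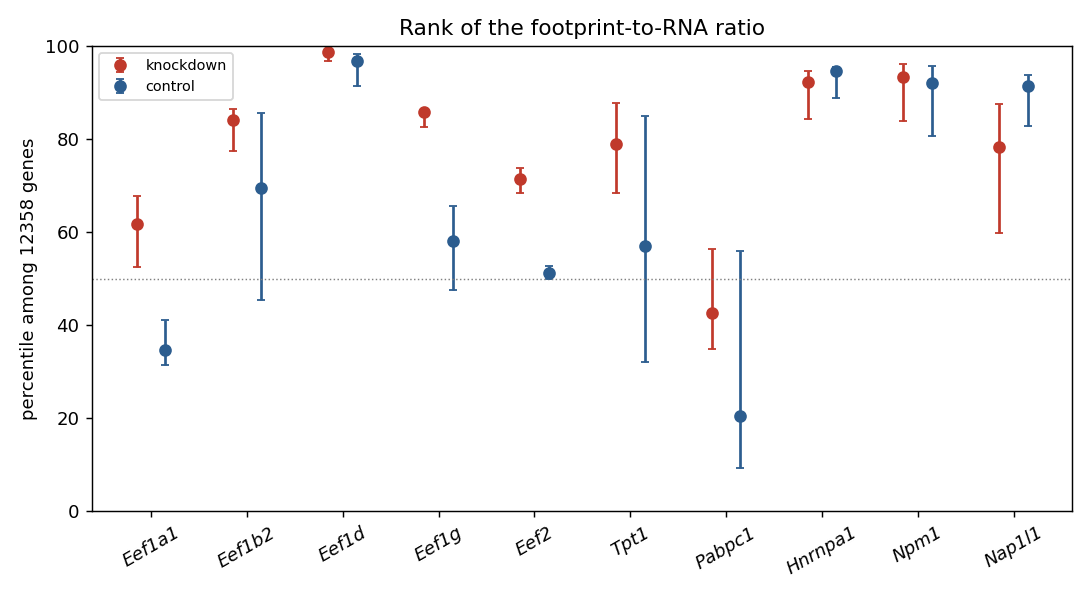
Percentile of the footprint-to-RNA ratio among 12358 genes, from group means (points) and over the 4 pairings of a footprint library with a total RNA library of the group (bars), knockdown in red left of control in blue. The bars of Eef1a1, Eef1g and Eef2 do not overlap between knockdown and control, and those of the other 7 members do. Over all 12358 genes 11.3% had ranges that do not overlap.

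Across libraries the members did not vary as 1 block. Each log2 level was centred on the mean of its own assay, and Pearson's r was taken over the 8 libraries, as a description, since 2 libraries share each condition and 4 share each table. Of 45 pairs of members 30 had a positive r, with a median of 0.14. Tpt1 and Pabpc1 were the closest pair (r = 0.97), then Hnrnpa1 and Nap1l1 (0.91), Eef1a1 and Eef1g (0.87) and Eef1b2 and Npm1 (0.78). Pabpc1 and Npm1 ran most nearly opposite (r = -0.72), followed by Tpt1 and Npm1 (-0.65). In total RNA control replicate 2, Pabpc1 lay 0.57 and Tpt1 0.38 below the assay mean on the log2 scale (deviations of -0.57 and -0.38), while Npm1 lay 0.44 and Eef1b2 0.36 above it. Summed over the 10 members, total RNA was 18117 and 18490.1 CPM in the knockdown, against 21663 and 22342 CPM in the control, and footprints were 18401 and 22373 CPM in the knockdown, against 19595 and 20504 CPM in the control. Total RNA sums were thus lower in both knockdown libraries, also with column totals as scaling. Footprint sums overlapped, but this depended on the scaling. Footprint column totals were 894269 and 1001553 CPM in the knockdown, against 1004613 and 1058777 CPM in the control. With these totals as scaling, both knockdown footprint sums lay above both control sums. Eef1a1 makes up the largest part of each sum.

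**Figure D5:**
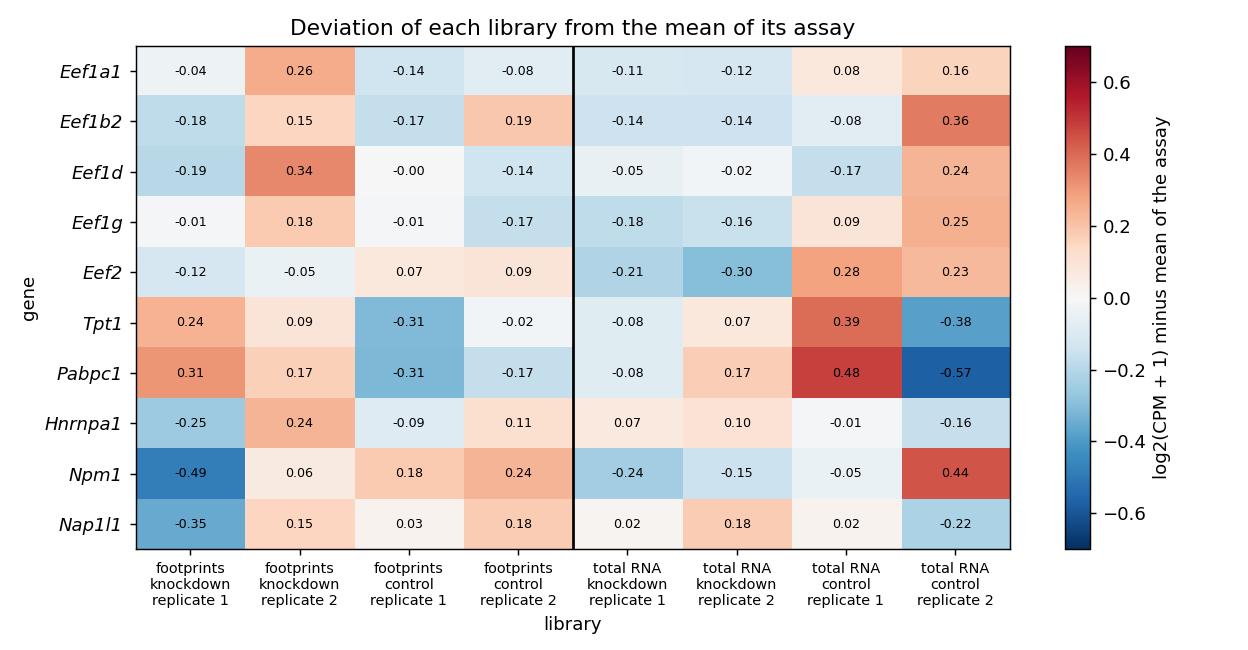
Deviation of each member (rows) in each library (columns) from its mean over the 4 libraries of that assay, in log2(CPM + 1) units, with red above and blue below. In total RNA control replicate 2, Pabpc1 (-0.57) and Tpt1 (-0.38) stand opposite to Npm1 (0.44) and Eef1b2 (0.36).

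Among 1751 other genes of at least 100 CPM in each assay, Bzw2 (r = 0.91), Gpi1 (0.87), Rps13 (0.84), Spag5 (0.84) and Qars (0.81) had the profile over the 8 libraries most like the members' mean. The members themselves had r from 0.19 (Pabpc1) to 0.82 (Eef1a1) with that mean, so it describes several of them poorly. Only Bzw2 of these 5 other genes was among the top 5 when genes of at least 10 CPM were searched.

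Genes around the members gave no calls either. For comparison, 49.4% of all genes tested were negative in footprints and 50.3% in total RNA. An unadjusted limma p below 0.05 was found for 12.9% of all genes in footprints and 14.9% in total RNA. Of 17 other known TOP mRNAs tested, 14 were negative in footprints (median -0.15) and 15 in total RNA (median -0.21), with 0 past limma's adjusted threshold and 4 and 2 at an unadjusted p below 0.05. Single libraries moved these medians widely, to -0.43 without footprint knockdown replicate 2 and -0.060 without knockdown replicate 1, and in total RNA to -0.47 without control replicate 1 and 0.025 without control replicate 2. Rabggtb, a subunit of the Rab prenylation enzyme, had -0.52 ± 0.15 in footprints and -0.74 ± 0.17 in total RNA. For Vim, an intermediate filament gene, these were -0.47 ± 0.15 and -0.69 ± 0.16. Of 17 regulators of TOP mRNAs and mTORC1 signalling, 9 were negative in footprints (median -0.01) and 3 in total RNA (median 0.05), with 0 called in either and 1 and 0 at an unadjusted p below 0.05. Eif4ebp1 encodes an mTORC1 target that hinders assembly of the cap-binding complex. Its values were -0.71 ± 0.18 in footprints (limma adjusted p = 0.187) and -0.31 ± 0.13 in total RNA (adjusted p = 0.34). Of 16 other elongation and termination factors 9 were negative in footprints and 8 in total RNA, with 0 called and 4 and 2 at an unadjusted p below 0.05. Eef2k, the kinase that inactivates eEF2, had -0.86 ± 0.23 in footprints (limma adjusted p = 0.195) and -0.52 ± 0.15 in total RNA (adjusted p = 0.208). Eefsec was also negative, with -0.58 ± 0.18 in footprints and -0.48 ± 0.18 in total RNA. Eef1akmt1 went the other way, with 0.69 ± 0.20 in footprints and 0.33 ± 0.19 in total RNA.

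Paralogs of the members were set beside them. Pabpc4, another cytoplasmic poly(A)-binding protein gene, had 61.1 and 55.1 footprint CPM in the knockdown, overlapping with 54.4 and 60.0 CPM in the control, a log2 change of 0.02 ± 0.17, where Pabpc1 had 0.48. Hnrnpa3 had 791 and 1151 footprint CPM in the knockdown, against 1284 and 1279 CPM in the control (-0.43 ± 0.22), where Hnrnpa1 had -0.02. In total RNA Hnrnpa3 lay at 812 and 386 CPM in the control libraries, on either side of 514 and 592 CPM in the knockdown, as Pabpc1 and Tpt1 did. Over all 12 paralogs tested in footprints 8 were negative (median -0.15), and over 11 in total RNA 7 were negative (median -0.04), with 0 called and 0 at an unadjusted p below 0.05. Differences between a member and its paralog were not tested. Several members, Eef1a1, Npm1, Tpt1, Hnrnpa1 and Eef1b2 among them, are known to have many processed pseudogenes, so their read numbers are uncertain where reads could have been split among copies.

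The authors' deposited table listed no member at an FDR below 0.05, where it listed 1.68% of all genes in footprints and 5.40% in total RNA. Its lowest FDRs among the members were 0.594 for Pabpc1 in footprints and 0.303 for Eef2 in total RNA, with log2 fold changes of 0.48 and -0.51 in the authors' deposited table.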

How the data were processed

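Footprints and total RNA were each measured in 2 knockdown and 2 control libraries of mouse J1 embryonic stem cells (TruSeq Ribo Profile libraries, rRNA depleted with Ribo-Zero Gold, single-end 50 bp reads, each footprint library sequenced 4 times, per the labels' protocols). The submitters' processing notes name the build mm9 and, with no role for each, HTSeq 0.11.2, Bowtie 1.2.3, edgeR 3.26.8 and TopHat2 2.1.1. The deposited library columns hold a signal, reads divided by an effective library size. They are written as CPM, and their values came out as whole multiples of 1 read within 0.01 read for 100% of genes. Per the file headers the authors also deposited log2 fold changes, mean log2 CPM, a likelihood ratio score and p-values with FDR.

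Because the values were not counts, limma 3.58.1 (R 4.3.3, variance prior following the mean) was run on log2(CPM + 1), a scale that understates changes of low genes, with Benjamini-Hochberg adjustment over all genes and a threshold of 0.05. Genes were kept by filterByExpr of edgeR 4.0.16 (minimum count 10, minimum total 15), and all 10 members passed in both tables. edgeR's quasi-likelihood test and DESeq2 1.42.0 on reads read back from the values were alternatives. In footprint control replicate 2 the value of 1 read, 0.0991 CPM, lies near 0.1, so its reads were treated as an estimate. Its values were also whole multiples of 1 read, but count tests left it out. With 2 libraries against 2 the smallest exact two-sided p is 0.333, which is above the threshold for any gene taken alone. The members and lists were chosen with earlier results of these data known. The ribosomal protein list leaves out paralogs whose symbols end in l1 but keeps Rpl10l. It was made by symbol, and whether each gene on it gives a TOP mRNA was not established. Named genes were the members, Eif4a2, paralogs, up to 3 genes of each list by smallest p, and the 5 most similar profiles. The fits were tested on simulated data with planted changes far larger than the members' own. That run does not show whether changes of the members' size could be called. Protein sequences and gene lengths were not used here, so levels are not compared between genes.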

Additional observations from a re-analysis of the deposited data

How the results depend on the processing

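No member was called in footprints or in translational efficiency under any alternative run, and in total RNA members were called only when a control library was left out (0 to 10 members over the 4 left-out libraries, 10 without control replicate 1 and 4 without control replicate 2). Over all genes, footprint calls numbered 40 with libraries centred on the median, 21 with column totals, 89 with all 8 libraries in 1 fit, 3 with edgeR and 9 with DESeq2 on 3 columns, and 1 to 36 with 1 library left out, against 0 as reported. Total RNA calls numbered 97 with all 8 libraries in 1 fit, 272 with DESeq2 and 34 to 6191 with 1 library left out, against 0 as reported, and translational efficiency calls 0 to 1 with 1 library left out. With the replicate number as a block, calls numbered 21 in footprints and 636 in total RNA, none of them a member. The deviations of same-numbered libraries correlated with r = 0.23 in footprints and -0.27 in total RNA, so the numbers do not establish pairs. Crossed pairing of total RNA, added after seeing the data, gave 924 calls.

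With 1 library left out, the members' median log2 fold change ran from -0.16 to 0.24 in footprints, from -0.27 to -0.14 in total RNA and from 0.20 to 0.39 in translational efficiency. Column totals moved the median of all footprint changes from 0.01 to 0.12. The signs of Eef1b2 (0.10) and Hnrnpa1 (0.11) in footprints turned with column totals. They also turned with edgeR and DESeq2, both run without footprint control replicate 2 (0.17 and 0.17 for Eef1b2, 0.11 and 0.11 for Hnrnpa1). limma without that library gave 0.15 for Eef1b2 and 0.08 for Hnrnpa1. Column totals also turned Eef1d (0.000999) and Tpt1 (0.061) in total RNA and Npm1 in translational efficiency (0.025). With 1 library left out, these members changed sign: in footprints Eef1b2 (-0.20 to 0.15), Eef1d (-0.12 to 0.41), Hnrnpa1 (-0.26 to 0.23) and Nap1l1 (-0.45 to 0.050), in total RNA Eef1d (-0.27 to 0.13), Tpt1 (-0.40 to 0.38) and Pabpc1 (-0.44 to 0.62), and in translational efficiency Eef1d (-0.050 to 0.48), Tpt1 (-0.046 to 0.73), Pabpc1 (-0.14 to 0.91), Hnrnpa1 (-0.43 to 0.058) and Npm1 (-0.30 to 0.25). The cause was not tested, and column totals move all genes alike.

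The alternatives in this paragraph were added after seeing the data, except the exact-start tract and the profile search. The members' median ratio percentile with 1 library left out ran from 79.3 to 85.4 in the knockdown and from 60.0 to 72.1 in the control. Summed total RNA in the knockdown was 18967 CPM with column totals. A tract exactly at the annotated start was found in 1 of 6 members (3.01% of all genes) and a tract within 40 bases after it in 4 (51.1% of all genes), against 2 as reported, and 1 of the 5 most similar genes remained at 10 CPM.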
